A study of Homo sapiens with 22 samples.

Results

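The proteasome is the protease complex that breaks down ubiquitin-tagged proteins. Its core particle is a barrel of alpha rings, encoded by PSMA genes, and beta rings, encoded by PSMB genes, and its catalytic sites lie on the beta subunits PSMB5, PSMB6 and PSMB7. The regulatory particle that caps the core has a base, with the PSMC ATPases that unfold substrates, and a lid, with the deubiquitinase PSMD14. In cells of the blood lineage and after interferon, the core can carry PSMB8, PSMB9 and PSMB10 in place of PSMB5, PSMB6 and PSMB7, which makes the immunoproteasome, a form known for producing peptides for class I antigen presentation.

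The mRNA levels of the proteasome genes were described in MOLM-13 and NB4, established human acute myeloid leukemia (AML) cell lines with the genotype given as WT. Cells had been kept for 48 hours with 2 μM FP54, a degrader that joins a ligand of the RNA demethylase FTO to a ligand of the ubiquitin ligase VHL and so sends FTO protein to the proteasome, or with the vehicle DMSO. Each line and treatment had 3 RNA-seq libraries, 12 of the 22 samples in the labels, while 10 samples of m6A-seq or polysome-seq were left out. Whether the 3 libraries of a group came from separate cultures is not stated in the labels, so p-values measure the spread between these libraries, which may be technical. All values are RPKM, reads scaled by gene length and library total, from poly(A)-selected RNA. In bulk RNA, a lower level in every cell and a loss of the transcript in a share of the cells cannot be told apart.

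Members were the genes whose symbol is PSMA, PSMB, PSMC or PSMD followed by a number, 39 of the 20411 genes of each table. A mean of at least 1 RPKM over the 6 libraries of a line was reached by 35 members in MOLM-13 and 36 in NB4 cells, with 35 in both. By textbook role, the 39 comprise 16 core genes (13 above the minimum), 9 base genes, 8 lid genes, 3 immunoproteasome genes and 3 chaperones of base assembly. Below the minimum in both lines were PSMA2, an alpha subunit, the testis form PSMA8 and the thymus form PSMB11. The chaperone PSMD9 was below it in MOLM-13 cells.

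The libraries held between 5835365 and 19203407 reads on genes in MOLM-13 cells, where FP54 replicate 2 was the shallowest. In NB4 cells the DMSO libraries held 20656143 to 22343153 reads and the FP54 libraries 10599498 to 13075566, so depth moved with treatment in that line, and its part in the results was not tested. The KMT2A-leukemia genes HOXA9 and FLT3 were at 19.1 RPKM or more in every MOLM-13 library, whereas HOXA9 was at most 0.716 RPKM in NB4 cells, which had 1082 to 2263 RPKM of the granule enzyme MPO. With FP54, MPO was lower and the myeloid integrin ITGAM was higher in all libraries of both lines, ITGAM rising from 3.64 ± 0.319 to 14.3 ± 1.02 RPKM (SD, n = 3) in NB4. The T cell gene CD3E and the liver gene ALB stayed at or below 0.201 RPKM, and the epithelial gene EPCAM was at 7.83 to 11.3 RPKM in NB4 cells. FTO mRNA itself was at 1.01 ± 0.0767 RPKM with DMSO and 1.01 ± 0.118 RPKM with FP54 (SD, n = 3) in MOLM-13, and at 2.73 ± 0.180 and 2.03 ± 0.0782 RPKM in NB4.

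The promoters of 34 of the 39 members were found in RefSeq (GRCh38.p14), each from 250 bases before to 50 bases after a transcript start. PSMA7, PSMB1, PSMB6, PSMB7 and PSMD4 had no entry. PSMB9, PSMB10 and PSMB3 are shown by their 150 bases before the start, 5′ to 3′ on the strand of the gene, because the first and second stand for the immunoproteasome and the last was the core gene with the largest fitted decrease in NB4 cells. Capitals mark the letters TGACNNNGC (the core of the antioxidant response element, to which NFE2L1 and NFE2L2 bind), CCAAT (the NF-Y box) and GAAA, any 2 bases and GAAA (the core of the interferon-stimulated response element, ISRE), on either strand.
PSMB9, chr6:32854042-32854191, plus strand: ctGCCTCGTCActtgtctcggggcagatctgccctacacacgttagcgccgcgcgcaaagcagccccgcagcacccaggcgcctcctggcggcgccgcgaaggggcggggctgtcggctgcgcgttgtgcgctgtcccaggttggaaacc
PSMB10, chr16:67936851-67937000, minus strand: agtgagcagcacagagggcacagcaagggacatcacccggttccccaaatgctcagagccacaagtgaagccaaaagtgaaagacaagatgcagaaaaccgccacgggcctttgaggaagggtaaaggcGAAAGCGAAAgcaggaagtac
PSMB3, chr17:38752591-38752740, plus strand: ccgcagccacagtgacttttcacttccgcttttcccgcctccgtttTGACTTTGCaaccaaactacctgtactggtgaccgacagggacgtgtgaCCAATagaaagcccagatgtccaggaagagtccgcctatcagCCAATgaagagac

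The antioxidant response element letters occurred in at least 1 promoter of 10 of the 34 members (29.4%), beside 16.1% of the 27305 genes in the promoter table, and CCAAT in 18 of 34 (52.9%), beside 39.7%. The ISRE core occurred in 4 of 34 (11.8%), beside 4.38% of all genes, namely PSMB8, PSMB10, PSMA4 and PSMB4. The interferon-gamma-activated letters TTCNNNGAA occurred in 7 of 34 (20.6%), beside 9.38%, namely PSMA2, PSMA8, PSMB5, PSMB8, PSMC4, PSMD2 and PSMD3. In PSMB8 they began at position −65 before its start, and in PSMB5, the gene it replaces, at −158 and −15. The 4 motifs were searched on both strands, and their letters do not overlap in the 3 promoters shown. A match describes the letters of the window and is not evidence of binding.

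In MOLM-13 cells, 6 of the 30 core, base and lid genes above the minimum passed the test as lower with FP54, the other 24 did not pass, and the immunoproteasome gene PSMB9 was higher. Over the 30 genes the median log2 fold change was −0.41, a level of 75.3% of DMSO. Fitted values were below zero for 27, while the median of all 9710 genes tested was 0.0033. For 10 of the 30, all FP54 libraries lay below all DMSO libraries, beside 17% of all genes. For 0 they lay above, beside 20.2% of all genes, and for 20 the treatments overlapped. At the cutoff of an unadjusted p below 0.01 from limma and an absolute log2 change of 0.5 or more, 6 of the 35 members were lower, beside 9.04% of all genes, and 1 was higher, beside 9.3%. At an adjusted p below 0.05 from limma, 7 were lower, beside 9.32% of all genes, and 1 was higher, beside 9.84%. All 3 FP54 libraries lay below all 3 DMSO libraries for 11 members, beside 17% of all genes, and above them for 1 member, beside 20.2%.

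In NB4 cells, 26 of the 30 core, base and lid genes passed limma's adjusted threshold of 0.05 as lower, 10 of them past the cutoff, and PSMB9 was higher. The 30 genes had a median log2 fold change of −0.38, and 29 were below zero, against a median of 0.07 over the 9853 genes tested, a difference of −0.45. Under median-ratio scaling, which put the median of all genes at −0.13, the core, base and lid medians were −0.60, −0.58 and −0.56. At the cutoff, 10 of 36 members were lower, beside 10.7% of all genes, and 1 was higher, beside 18.6%. At an adjusted p below 0.05 from limma, 26 members were lower, beside 22% of all genes, and 1 was higher, beside 29.8%. The FP54 libraries lay below the DMSO libraries for 28 of 36 members, beside 26.2% of all genes, and above them for 1, beside 34.3%. Summed over the core, base and lid genes, NB4 libraries held 1389, 1604 and 1531 RPKM with DMSO and 1121, 1149 and 1103 RPKM with FP54. In MOLM-13 cells the sums were 886, 717 and 926 RPKM with DMSO and 652, 718 and 681 RPKM with FP54, and the groups overlapped through DMSO replicate 2.

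**Figure D1:**
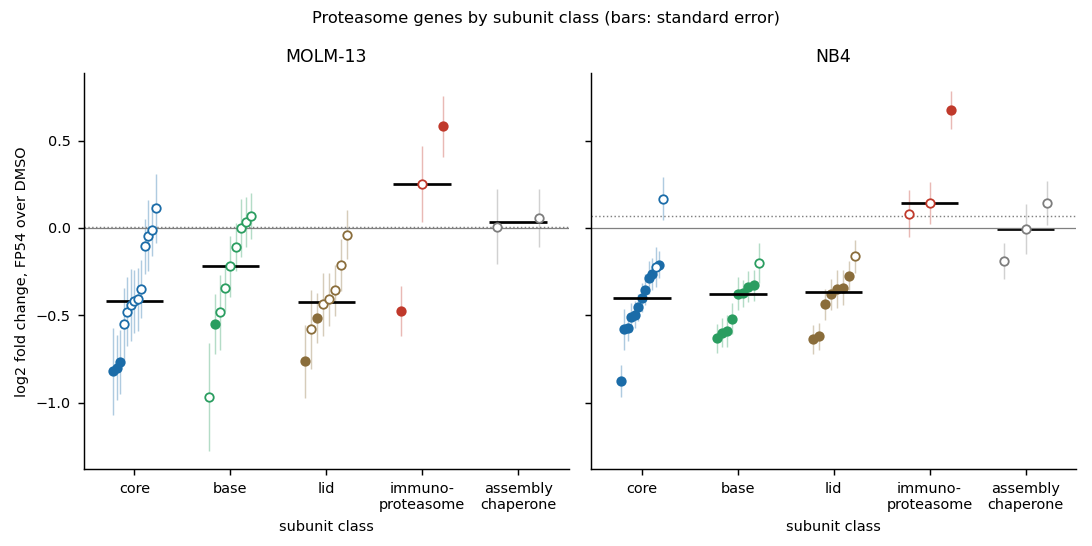
The log2 fold change of each proteasome gene (FP54 over DMSO, y axis) is plotted by subunit class (x axis) for MOLM-13 and NB4 cells, with standard errors; filled points have an adjusted p below 0.05 from limma, black lines are class medians and the dotted line is the median of all genes tested. Core, base and lid medians lie between −0.42 and −0.22 in MOLM-13 and between −0.40 and −0.36 in NB4 cells, and PSMB9 is the top filled point in both.

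DMSO replicate 2 was the lowest of the 3 DMSO libraries for 26 of the 35 members in MOLM-13 cells. In NB4 cells DMSO replicate 1 was the lowest for 25 of 36, and DMSO replicate 2 the highest for 20. The counts of lower members in MOLM-13 cells moved with the library left out, and so did those of all genes. Without DMSO replicate 2, 11 members were lower at the cutoff, beside 12.4% of all genes, and 17 at an adjusted p below 0.05 from limma, beside 13.3%. Without DMSO replicate 3, 2 were lower at the cutoff, beside 4.76% of all genes, and 0 at the adjusted p, beside 2.31%. Without FP54 replicate 1 the counts were 2, beside 5.19%, and 0, beside 2.20%. Without DMSO replicate 1 they were 3, beside 5.63%, and 1, beside 3.64%. Without FP54 replicate 2 they were 8, beside 8.81%, and 9, beside 9.38%. Without FP54 replicate 3 they were 6, beside 10.4%, and 5, beside 9.70%. No member, higher or lower, kept an adjusted p below 0.05 without DMSO replicate 3, without FP54 replicate 1 or with no filter on low values, so every adjusted call named below for MOLM-13 cells was lost in these 3 runs.

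Among the core genes, the median log2 fold change was −0.42 in MOLM-13 and −0.40 in NB4 cells. At the cutoff 3 of 13 were lower in MOLM-13 cells, beside 9.04% of all genes, and 4 in NB4, beside 10.7%. PSMB2, a beta subunit without a catalytic site, was at 10.7, 6.40 and 8.64 RPKM with DMSO and 3.95, 3.90 and 6.76 RPKM with FP54 in MOLM-13 cells. It fell by 0.82 on the log2 scale (standard error, SE, 0.25, limma adjusted p = 0.0444), although FP54 replicate 3 lay above DMSO replicate 2. Its adjusted p reached 0.174 with a library left out and 0.242 with no filter. PSMB6, the subunit with caspase-like activity, was at 37.4, 29.3 and 46.1 RPKM with DMSO and 18.1, 24.3 and 21.5 RPKM with FP54, without overlap. Its log2 fold change was −0.80 (SE 0.18, limma adjusted p = 0.0171), with the adjusted p up to 0.0853 with a library left out and 0.138 with no filter. The alpha subunit PSMA3 fell by 0.77 on the log2 scale (adjusted p = 0.0197 from limma, up to 0.0897 with a library left out and 0.147 with no filter). PSMA6, another alpha subunit, had the highest fitted value of the core in MOLM-13 cells, 0.11, with 3.53 ± 0.443 RPKM with DMSO and 3.87 ± 0.815 RPKM with FP54 (SD, n = 3).

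In NB4 cells PSMB3, a beta subunit without catalytic activity, was at 80.4, 93.7 and 88.4 RPKM with DMSO and 44.2, 50.3 and 48.3 RPKM with FP54. This was the largest fitted decrease of any member there, a log2 fold change of −0.88 (SE 0.09, limma adjusted p = 2.57e-05). Of the constitutive core genes above the minimum, 7 of 7 beta genes and 4 of 6 alpha genes passed an adjusted p below 0.05 in NB4 cells, beside 22% of all genes. The alpha genes that did not, PSMA1 and PSMA6, share exons with another locus (given with the low levels). Under quantile normalization 5 beta genes and 3 alpha genes passed, beside 28.1% of all genes. There PSMB4, PSMB7, PSMA5 and PSMA7 no longer passed and PSMA6 did. PSMB4 was also lost with a library left out (adjusted p up to 0.185 from limma), and the difference between alpha and beta genes was not tested. PSMA1 had the highest core value, 0.17, at 7.21, 6.25 and 5.63 RPKM with DMSO and 6.41, 6.96 and 8.10 RPKM with FP54, and its groups overlapped. In MOLM-13 cells PSMA1 had a log2 fold change of −0.55 (adjusted p = 0.0882 from limma).

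The base genes had a median log2 fold change of −0.22 in MOLM-13 and −0.38 in NB4 cells. For the scaffold PSMD1 all FP54 libraries lay below the DMSO libraries in both lines. In MOLM-13 cells it was at 3.65, 2.85 and 4.61 RPKM with DMSO and 1.03, 2.47 and 2.29 RPKM with FP54, the largest fitted change of any member (log2 fold change −0.97, standard error 0.31), which did not pass the adjusted threshold (adjusted p = 0.0524 from limma). In NB4 cells it was at 11.8, 12.1 and 12.6 RPKM with DMSO and 7.77, 7.95 and 7.77 RPKM with FP54, a fall by 0.63 on the log2 scale (adjusted p = 0.000159 from limma). PSMC5 was the only base gene called in MOLM-13 cells (log2 fold change −0.55), while PSMD1, PSMD2, PSMC4 and PSMC3 were called in NB4 cells. These are 1 of 9 base genes, beside 9.04% of all genes lower, and 4 of 9, beside 10.7%. PSMC6 was the highest base gene in MOLM-13 cells (0.07), and in NB4 it fell by 0.34 on the log2 scale (adjusted p = 0.00958 from limma). The ubiquitin receptor PSMD4 was the highest in NB4 cells (−0.20, adjusted p = 0.172 from limma) and lay at −0.0020 in MOLM-13 cells.

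All 8 lid genes had fitted values below zero in each line, with medians of −0.42 in MOLM-13 and −0.36 in NB4 cells. PSMD7, the partner of the deubiquitinase, was the lowest in MOLM-13 cells, at 62.4, 52.9 and 78.8 RPKM with DMSO and 28.4, 48.4 and 38.5 RPKM with FP54 (log2 fold change −0.76, SE 0.21, limma adjusted p = 0.0318). Its adjusted p reached 0.131 with a library left out and 0.205 with no filter. PSMD12 was the other lid gene called there (−0.52). In NB4 cells PSMD6 and PSMD3, both scaffold subunits, were called, at −0.64 and −0.62. Each line thus had 2 of 8 lid genes lower at the cutoff, beside 9.04% of all genes in MOLM-13 and 10.7% in NB4. The deubiquitinase PSMD14 was the highest lid gene in NB4 cells (−0.16, adjusted p = 0.177 from limma) and in MOLM-13 cells stood at −0.58 (adjusted p = 0.0965 from limma).

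The chaperones of base assembly did not pass the threshold in either line. PSMD10 stood at 0.06 in MOLM-13 and −0.19 in NB4 cells, and PSMD5 at 0.0078 and 0.14. PSMD9 stood at −0.0070 in NB4 cells, with 1.16 ± 0.0282 RPKM with DMSO and 1.16 ± 0.157 RPKM with FP54 (SD, n = 3).

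Of the 3 immunoproteasome genes, PSMB9 was higher with FP54 in both lines. PSMB9, which replaces PSMB6, was at 3.28, 2.32 and 2.78 RPKM with DMSO and 4.23, 4.32 and 4.03 RPKM with FP54 in MOLM-13 cells. In NB4 cells it was at 3.05, 3.32 and 2.90 RPKM with DMSO and 5.26, 5.10 and 4.61 RPKM with FP54. The groups did not overlap in either line. The log2 fold change was 0.58 in MOLM-13 (SE 0.17, limma adjusted p = 0.0434) and 0.67 in NB4 cells (SE 0.11, limma adjusted p = 0.000504). In MOLM-13 cells the call fell below the fold minimum at a pseudocount of 1 and was lost with the replicate block, with limma-voom on recovered reads and in 5 of 6 runs with a library left out. The adjusted p was 0.117 with no filter, where the call held, and up to 0.143 with a library left out, with none below 0.05. In NB4 cells PSMB9 stayed higher under median-ratio scaling (0.48) and quantile normalization (0.46), which put it below the fold minimum. PSMB9 rested on 84 to 271 reads per library in MOLM-13 and 186 to 236 in NB4 cells.

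PSMB8, which replaces PSMB5, passed the adjusted p in MOLM-13 cells, with a fold change under the minimum of the cutoff, and did not pass in NB4. In MOLM-13 cells it was at 19.7, 20.3 and 24.0 RPKM with DMSO and 15.0, 16.8 and 14.1 RPKM with FP54, with all FP54 libraries lower. It fell by 0.47 on the log2 scale (SE 0.14, limma adjusted p = 0.0441), and the adjusted p was above 0.05 without a filter on low values, with the replicate block, with eBayes without trend and in 4 of 6 runs with a library left out, where the adjusted p reached 0.205. In NB4 cells it was at 13.6, 18.9 and 16.1 RPKM with DMSO and 17.8, 19.0 and 16.5 RPKM with FP54, and the groups overlapped (log2 fold change 0.14, adjusted p = 0.345 from limma, and −0.06 under median-ratio scaling). PSMB10, which replaces PSMB7, overlapped between treatments in both lines. It was at 11.4, 7.28 and 10.2 RPKM with DMSO and 13.5, 8.55 and 12.5 RPKM with FP54 in MOLM-13 cells (0.25), and at 5.39, 5.77 and 5.70 RPKM and 4.82, 6.18 and 7.06 RPKM in NB4 cells (0.08).

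Their constitutive counterparts were lower in NB4 cells. There PSMB5, the chymotrypsin-like subunit, was at 43.3, 47.4 and 48.9 RPKM with DMSO and 36.1, 36.4 and 33.2 RPKM with FP54. PSMB6 was at 54.4, 76.8 and 59.6 RPKM and 41.5, 43.6 and 41.0 RPKM, and PSMB7, the trypsin-like subunit, at 59.2, 68.5 and 66.7 RPKM and 48.1, 54.3 and 49.6 RPKM. None of the 3 overlapped between treatments, beside 26.2% of all genes with every FP54 library lower. All 3 passed an adjusted p below 0.05 from limma, beside 22% of all genes lower. PSMB7 did not pass under quantile normalization (limma adjusted p = 0.0618). In MOLM-13 cells PSMB5 was at 19.5, 14.6 and 20.6 RPKM with DMSO and 13.2, 13.5 and 15.8 RPKM with FP54, and PSMB7 at 47.3, 34.5 and 45.7 RPKM and 43.0, 40.4 and 41.9 RPKM, both with overlap.

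**Figure D2:**
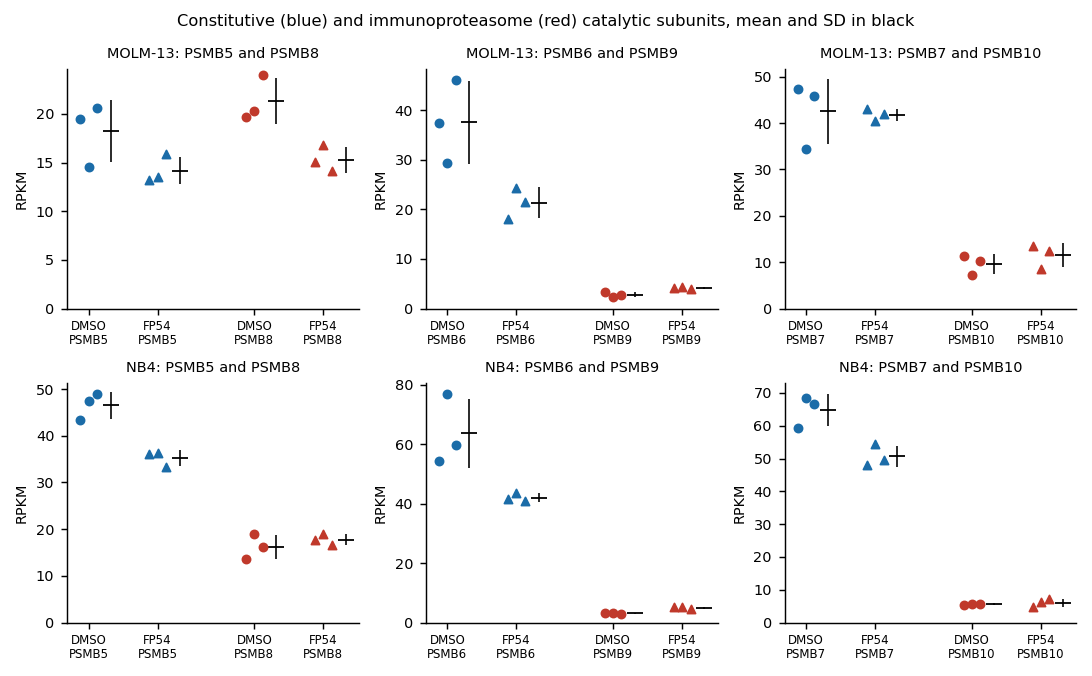
RPKM (y axis, from 0) of the constitutive catalytic genes (blue) and the immunoproteasome genes that replace them (red) is shown for every library, with DMSO as circles, FP54 as triangles and the mean with its SD in black. The 3 FP54 values of PSMB9 lie above the 3 DMSO values in both lines, and the PSMB6 values lie below.

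Ratios within a library do not depend on its scaling. The immunoproteasome share of the summed RPKM of the 6 catalytic genes was 12.3%, 12.7% and 12.4% in the DMSO libraries of NB4 cells and 18.1%, 18.4% and 18.5% in the FP54 libraries. In MOLM-13 cells it was 24.8%, 27.6% and 24.8% with DMSO and 30.6%, 27.5% and 27.9% with FP54, with overlap. The exact permutation test (two-sided, n = 3 per group) gave p = 0.1 in NB4, the smallest it can give with these group sizes, and p = 0.2 in MOLM-13. PSMB9 relative to PSMB6 was at 5.595%, 4.32% and 4.86% with DMSO and 12.7%, 11.7% and 11.2% with FP54 in NB4 cells. In MOLM-13 cells it was at 8.77%, 7.92% and 6.04% with DMSO and 23.4%, 17.8% and 18.7% with FP54, and the exact permutation p (n = 3) was 0.1 in each line. PSMB8 relative to PSMB5 was at 31.4%, 39.8% and 33.0% with DMSO and 49.2%, 52.1% and 49.7% with FP54 in NB4 cells. The MOLM-13 libraries were at 101%, 139% and 117% with DMSO and 114%, 124% and 89.0% with FP54, with a lower mean and overlap (exact permutation p = 0.5). PSMB10 relative to PSMB7 was at 9.10%, 8.43% and 8.54% with DMSO and 10.02%, 11.4% and 14.2% with FP54 in NB4 cells. The MOLM-13 libraries were at 24.1%, 21.1% and 22.4% with DMSO and 31.4%, 21.2% and 29.8% with FP54, with overlap (exact permutation p = 0.3). The exact permutation p of both ratios in NB4 cells was 0.1. Over these 8 tests the smallest adjusted exact permutation p was 0.16, so the ratios of NB4 cells and PSMB9 to PSMB6 in MOLM-13 cells separated by library but could not pass 0.05 in this design. The RPKM used the merged exon length of a gene, which is 3338 bases for PSMB9 and 1447 for PSMB6, against 1017 and 824 bases in the canonical transcripts. Canonical lengths were an alternative chosen after seeing the data. With them, the NB4 share was 18.9 ± 0.381% with DMSO and 27.2 ± 0.180% with FP54 (SD, n = 3). The MOLM-13 share was then 35.1 ± 2.36% with DMSO and 37.4 ± 1.49% with FP54, with overlap.

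**Figure D3:**
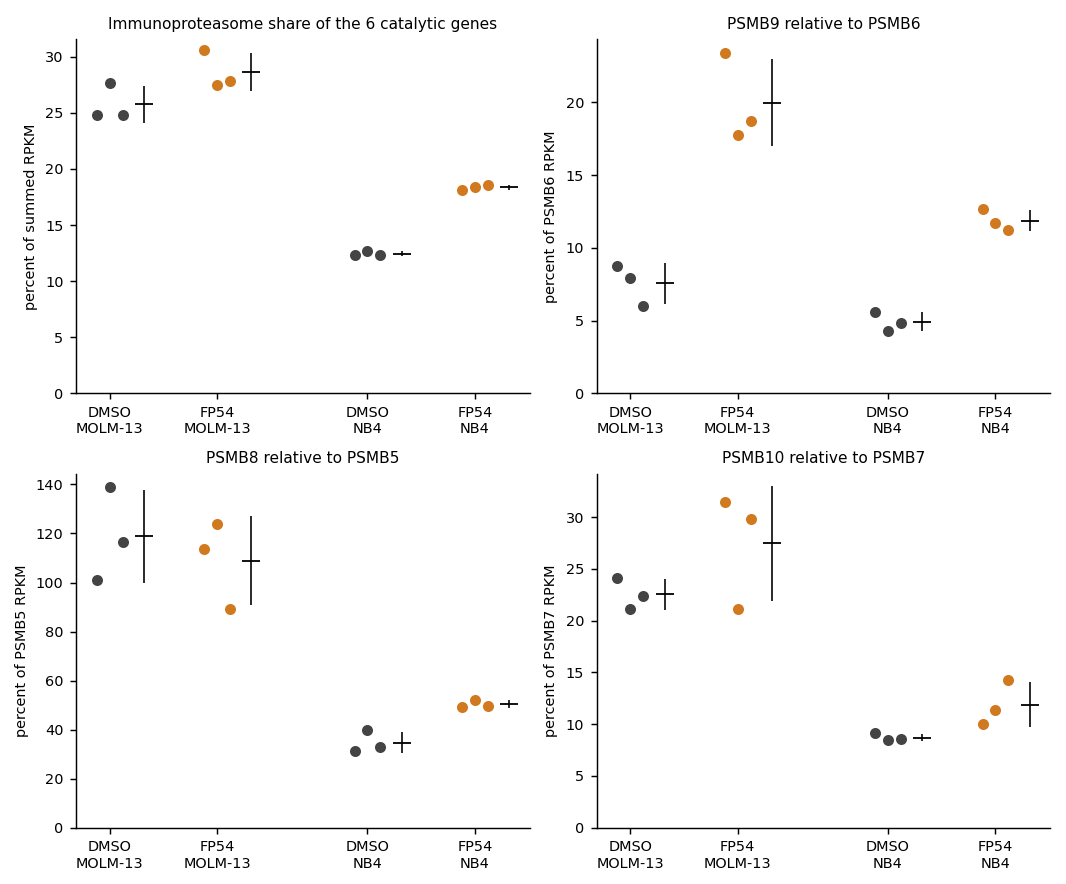
The immunoproteasome genes' percent of the summed RPKM of the 6 catalytic genes (top left) and each immunoproteasome gene as a percent of the RPKM of the gene it replaces (other panels, y axes from 0) are shown for each library of both lines (DMSO gray, FP54 orange, mean and SD in black). All 4 quantities separate in NB4 cells, the share at 12.3 to 12.7% and 18.1 to 18.5%, whereas in MOLM-13 cells only PSMB9 relative to PSMB6 separates.

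A test of the difference between the lines (the interaction in 1 limma model of the 12 libraries, 8849 genes) found 1 member lower, beside 3.75% of all genes, and 1 higher, beside 10.5%, at an adjusted p below 0.05. PSMD6 was at 14.9, 14.4 and 15.1 RPKM with DMSO and 9.24, 9.71 and 9.44 RPKM with FP54 in NB4 cells, and at 8.88, 7.55 and 8.70 RPKM and 7.998, 7.96 and 8.44 RPKM in MOLM-13 cells. Its effect was lower in NB4 than in MOLM-13 cells by a log2 value of −0.60 (SE 0.15, limma adjusted p = 0.0145). For PSMB8 the effect was higher in NB4 cells by 0.62 (SE 0.19, limma adjusted p = 0.0424). Both calls were lost with the replicate block, and the PSMB8 call also under median-ratio scaling and eBayes without trend. With a library number left out of both lines, the adjusted p reached 0.0729 for PSMD6 and 0.181 for PSMB8, each without DMSO replicate 3. For PSMB9 the effects differed by 0.09 (adjusted p = 0.805 from limma).

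**Figure D4:**
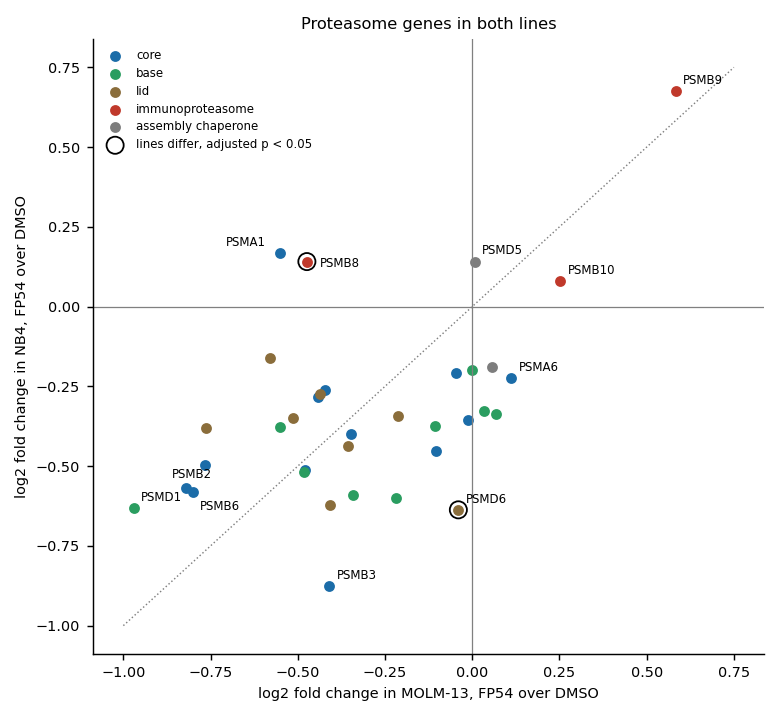
Each point is 1 of the 35 proteasome genes tested in both lines, with its log2 fold change (FP54 over DMSO) in MOLM-13 on the x axis and in NB4 on the y axis, colored by subunit class; the dotted line marks equal change and circles mark a difference between lines at an adjusted p below 0.05. Of the 35, 26 lie below zero in both lines, and PSMB9 is at 0.58 and 0.67.

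Across the 35 genes the log2 fold changes of the lines correlated with a Pearson r of 0.51 and a Spearman rho of 0.39. Over the 30 core, base and lid genes the r was 0.22. Genes are not independent replicates, and those of 1 line share libraries, so these values are descriptions. With DMSO, 29 of the 35 members were at a higher RPKM in NB4 than in MOLM-13 cells. The median ratio was 1.58, with the highest for PSMA7 (4.21) and the lowest for PSMB10 (0.583). The tables were made separately, and this ratio was not tested or set beside that of all genes.

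Levels of some members were low in both lines. PSMA2 was at 0.135 ± 0.0370 RPKM with DMSO and 0.130 ± 0.0610 RPKM with FP54 (SD, n = 3) in MOLM-13 cells, on 3 to 24 reads per library, and at 0.424 ± 0.0966 and 0.776 ± 0.186 RPKM in NB4 cells. Another protein-coding locus on the same strand, a readthrough gene, covers 100% of the bases of the canonical PSMA2 transcript. Such a locus also covers 81.4% of PSMA6, 67.0% of PSMA1, 56.1% of PSMB10 and 28.8% of PSMD9. With DMSO these 5 genes were at 0.135 to 9.93 RPKM in MOLM-13 cells, against 2.79 to 108 RPKM for 32 other members, so their levels, and any split of reads between loci, are uncertain. The loci over PSMA1, PSMA2, PSMA6 and PSMD9 held at most 0.0836 RPKM in any library of either line. The locus over PSMB10 held 0.362 to 1.29 RPKM. These values do not show whether reads in shared exons were counted for neither locus. The part of the shared exons in their levels was not tested. PSMC1 shares 83.2% of its canonical bases with NRDE2 and PSMC5 13.7% with FTSJ3 on the opposite strand, the antisense gene PSMB8-AS1 lies across the start of PSMB8, and whether the counting used the strand is not stated in the sources used here. PSMD9 was at 0.153 ± 0.0851 RPKM with DMSO and 0.221 ± 0.0557 RPKM with FP54 (SD, n = 3) in MOLM-13 cells. PSMA8 and PSMB11 had at most 1 read in any library.

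Other genes of the system were taken from 6 lists of 40 genes, of which 38 were tested in MOLM-13 and 39 in NB4 cells. In MOLM-13 cells 5 were lower at the cutoff of limma, beside 9.04% of all genes, and 0 higher, beside 9.3%. In NB4 cells 3 were lower, beside 10.7%, and 2 higher, beside 18.6%, both smaller shares than over all genes. At an adjusted p below 0.05 from limma the counts were 6 lower (beside 9.32%) and 0 higher (beside 9.84%) in MOLM-13, and 13 lower (beside 22%) and 8 higher (beside 29.8%) in NB4 cells. At an unadjusted p below 0.05, 11 were lower in MOLM-13 cells, beside 17.4% of all genes, and 3 higher, beside 17.6%. In that line limma-voom called 1 higher, beside 10.5%. With a library left out, 2 to 11 were lower at the cutoff in MOLM-13 cells, beside 4.76 to 12.4% of all genes. At the adjusted p 0 to 12 were lower, beside 2.20 to 13.3%. Of the 8 other subunits and assembly factors, 3 were lower at the cutoff in MOLM-13 cells, beside 9.04% of all genes. In NB4 cells 2 were, beside 10.7%. The list medians in MOLM-13 and NB4 cells were −0.52 and −0.28. PSMG3 and PSMG1, chaperones of core assembly, fell by 1.33 and 1.14 on the log2 scale in MOLM-13 cells. PSMG1 was at 16.0, 8.21 and 16.7 RPKM with DMSO and 4.99, 5.42 and 7.38 RPKM with FP54, without overlap. In NB4 cells the lid subunit SEM1 fell by 0.63 and PSMG1 by 0.53. Of the 5 regulators, 1 was lower at the adjusted p in MOLM-13, beside 9.32% of all genes, and 4 in NB4 cells, beside 22%. The proteasome activator subunit PSME2 was called in MOLM-13 cells (−0.68) and was lower in NB4 cells at the adjusted p (−0.46, adjusted p = 0.00447 from limma). PSME3, another activator, was called in NB4 cells (−0.71) and stood at −0.77 in MOLM-13 cells (adjusted p = 0.0679 from limma). Neither differed between the lines in the limma interaction (adjusted p of 0.497 and 0.922). Of the 12 associated enzymes and shuttles, 1 was lower at the cutoff in MOLM-13 cells, beside 9.04% of all genes. This was UBQLN4 (−0.72), a shuttle for ubiquitinated proteins, which did not pass the interaction (adjusted p = 0.0531 from limma). In NB4 cells none of the 12 was called at the cutoff, beside 10.7% lower and 18.6% higher. At the adjusted p 3 were lower there, beside 22% of all genes, and 1 higher, beside 29.8%. None of the 4 ubiquitin genes passed the cutoff in either line.

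Of 6 genes of transcriptional control and nuclear import, 1, NFE2L1, was called in NB4 cells, beside 18.6% of all genes higher at the cutoff. NFE2L1 encodes the factor known to drive proteasome genes when proteasome activity is low. It was at 37.2, 36.2 and 37.8 RPKM with DMSO and 98.3, 105 and 92.2 RPKM with FP54 in NB4 cells, without overlap (log2 fold change 1.40, SE 0.08, limma adjusted p = 5.11e-07). In MOLM-13 cells it was at 39.7, 40.0 and 43.4 RPKM and 39.3, 49.3 and 40.1 RPKM, with overlap (0.06). The difference between the lines was 1.35 (SE 0.16, limma adjusted p = 4.82e-05). The proteasome importer IPO9 (0.64) also differed between the lines at an adjusted p below 0.05. Of the 5 interferon and peptide-loading genes, 4 were tested in NB4 cells and 3 were higher at the adjusted p, beside 29.8% of all genes. TAPBP, a peptide-loading chaperone, was called there (0.55), but under quantile normalization it stood at 0.18 with an adjusted p of 0.281 from limma. IRF1 (0.49) had a limma adjusted p of 0.00270, and 0.0496 under quantile normalization. For TAP1 (0.33) these were 0.0141 and 0.177, and NLRC5 stood at −0.06. In MOLM-13 cells 0 of 3 tested passed, beside 9.84% of all genes higher, with IRF1 at 0.58 (limma adjusted p = 0.0641).

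**Figure D5:**
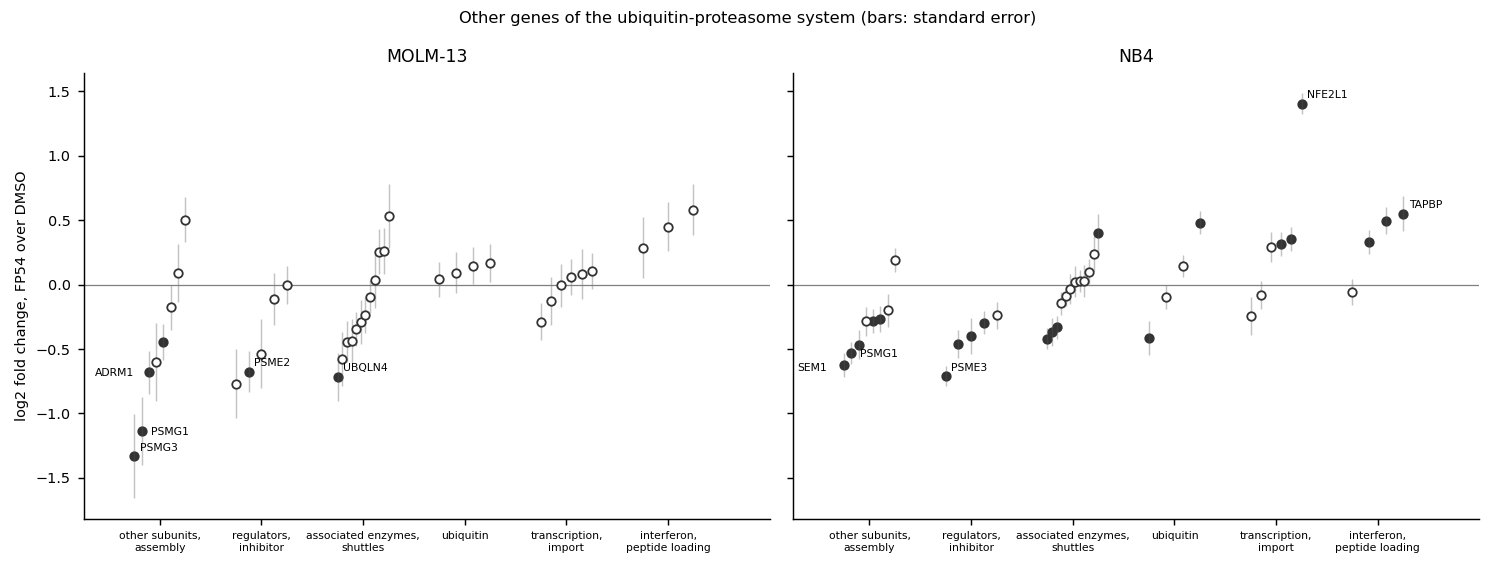
The log2 fold change (FP54 over DMSO, y axis) with its standard error is shown for the other genes of the ubiquitin-proteasome system by list (x axis); filled points have an adjusted p below 0.05 from limma and labelled genes passed the cutoff. NFE2L1 is at 1.40 in NB4 and 0.06 in MOLM-13 cells, and PSMG3 and PSMG1 are the lowest in MOLM-13 cells.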

How the data were processed

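The authors trimmed reads with Cutadapt 4.8, removed duplicates with Clumpify, aligned to hg38 with STAR 2.7.11b, counted reads on protein-coding GENCODE genes with featureCounts 2.0.3 and deposited RPKM per library. For the NB4 table, only its name gives the cell line. The members, subunit classes and gene lists were chosen with earlier results of these data known. Some genes of the system are not reported here.

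Limma 3.58.1 in R 4.3.3 (lmFit, eBayes with an intensity trend, no replicate block) was applied to log2 of the deposited RPKM plus 0.1 wherever the mean RPKM reached 1, with Benjamini-Hochberg adjustment over all genes tested. Fold changes are on this log2 scale and understate changes of low genes. A gene was called at p below 0.01 and an absolute log2 fold change of at least 0.5, as in the study's methods. The limma interaction used an adjusted p below 0.05. Reads were recovered from RPKM and GENCODE 44 merged exon lengths, and 98.5 to 99.1% of values under 100 reads were whole within 0.05 reads. Tables were read in Python 3.11.15 with pandas 2.3.3.

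Genes named one by one were the 6 catalytic genes, the 3 largest decreases and increases per line, the extremes of each class, members that differed between lines, members below the minimum, and up to 2 called genes per other list. Further names were chosen after their values were seen. Tested on simulated data with 200 genes changed by 1.5 (log2), limma recovered 95.5% at the cutoff in MOLM-13 (82 false calls) and 99.5% in NB4 (21 false calls), and 90.0% of 350 genes changed in 1 line only by the interaction. Fitted changes of the members ran from −0.97 to 0.67. Changes of that size were not simulated, so their recovery is unknown and a member that was not called may still have changed. The alternatives were pseudocounts, filters, scalings, the replicate block, eBayes options, limma-voom on recovered reads, and leaving out each library.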

Additional observations from a re-analysis of the deposited data

Results flagged for a closer look

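The FP54 effect of PSMD6, a lid subunit, differed between the lines in the limma interaction by −0.60 (NB4 minus MOLM-13, log2), with a value of −0.64 in NB4 and −0.04 in MOLM-13 cells. The FP54 effect of PSMB8, an immunoproteasome subunit, differed by 0.62, with 0.14 in NB4 and −0.47 in MOLM-13 cells. These are 1 of 35 members lower and 1 higher, beside 3.75% and 10.5% of all genes, smaller shares than over all genes. With the replicate block neither passed (limma adjusted p = 0.0508 for PSMD6), and PSMB8 did not pass under median-ratio scaling (limma adjusted p = 0.179).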

How the results depend on the processing

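In MOLM-13 cells, without a filter on low values 1 member was lower at the cutoff, beside 2.60% of all genes, and 0 at the adjusted p, beside 0.274%. The setting of eBayes without trend left 4 at the adjusted p, beside 8.14%. Limma as reported gave 6, beside 9.04%, and 7, beside 9.32%. The call of PSMB9 in MOLM-13 fell to 0 at the cutoff with a pseudocount of 1, a mean RPKM of at least 5, where it was not tested, the replicate block and limma-voom, and to 0 at the adjusted p with no filter, the minimum of 5, the replicate block and limma-voom. In NB4 cells 22 members were lower at the cutoff under median-ratio scaling and 26 at the adjusted p with no fold minimum, against 10, and the 1 higher member fell to 0 under median-ratio scaling, quantile normalization and, untested, the minimum of 5. Median-ratio scaling moved the median of all genes in NB4 from 0.07 to −0.13, and the calls over all genes from 1050 lower and 1834 higher to 2008 and 1184. Between lines, 2 members were lower with no filter, 4 under median-ratio scaling, 2 under quantile normalization and 0 with the replicate block. Over all genes, 628 of 20411, 834 of 8849, 891 of 8849 and 218 of 8849 were lower in these runs. No member was higher under median-ratio scaling, the block and eBayes without trend, beside 630, 681 and 926 of 8849 genes.

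Median-ratio scaling gave NB4 class medians of −0.60 (core), −0.58 (base), −0.56 (lid), −0.057 (immunoproteasome) and −0.19 (chaperones), and quantile normalization gave −0.28, −0.31 and −0.26 for core, base and lid. Without a filter the NB4 core median was −0.32. At a mean of at least 5 the chaperone median in NB4 was −0.19 and the immunoproteasome median in MOLM-13 −0.11. With canonical transcript lengths the immunoproteasome share in NB4 rose by 8.26 points, against 5.90. In MOLM-13 it rose by 2.31 points, against 2.91, with overlap in both. The cause of these shifts was not tested beyond the construction of each setting.

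With 1 library left out in turn, members lower at the cutoff ranged from 2 to 11 in MOLM-13 and from 7 to 12 in NB4 cells. The shares of all genes were 4.76 to 12.4% and 10.0 to 11.1%. At the adjusted p the members lower ranged from 0 to 17 and from 20 to 29, beside 2.20 to 13.3% and 17.9 to 25.8% of all genes. Members higher ranged from 0 to 1 at the cutoff and were 0 at the adjusted p in MOLM-13, and were 1 at the cutoff and 1 to 2 at the adjusted p in NB4. Between lines they ranged from 0 to 2 (lower) and 0 to 1 (higher). Class medians ranged from −0.59 to −0.31 (core), −0.37 to −0.12 (base), −0.53 to −0.35 (lid), 0.07 to 0.45 (immunoproteasome) and −0.06 to 0.15 (chaperones) in MOLM-13, and from −0.45 to −0.36, −0.46 to −0.37, −0.44 to −0.35, 0.05 to 0.26 and −0.06 to 0.10 in NB4. The immunoproteasome share rose by 1.93 to 3.85 points in MOLM-13 and by 5.80 to 6.01 in NB4.

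Same-numbered libraries did not deviate together (r from −0.26 to −0.06 in MOLM-13 and from −0.14 to 0.12 in NB4), so the numbers do not pair them. Under other numbers, the largest r of each MOLM-13 DMSO library was picked after the values were seen. It was 0.59 for DMSO replicate 1 with FP54 replicate 3 and 0.49 for DMSO replicate 2 with FP54 replicate 1. For DMSO replicate 3 with FP54 replicate 2 it was 0.47. The largest r in NB4 was 0.22. Deviations from a group mean cancel over its 3 libraries, so some positive r is built in. These values therefore cannot show that libraries go together. Whether any libraries share a batch is not in the labels and was not tested, and limma treated all libraries as independent. With the replicate block, which follows the numbers, 5 members were lower at the cutoff in MOLM-13, beside 9.06% of all genes, and 10 in NB4, beside 10.7%.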
